A study of Homo sapiens with 6 samples.

Results

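Ribosomal protein pseudogenes that received reads in Huh7 cells were compared with their parent genes after knockdown of CTSV, the gene for the lysosomal protease cathepsin V. Huh7 is an established line from a human liver carcinoma. The members were selected on their mean level and are all gene names built from a ribosomal protein symbol, the letter P and a number, with a mean of at least 1 CPM (counts scaled to a common library size) over the 6 libraries. This gave 54 pseudogenes of 410 names with that pattern, out of 27394 gene names in all. The mean over both groups chose the members, so their levels are a description, while the difference between the groups was not used. Just inside the limit stood RPS7P10 at 1.25, RPL13P5 at 1.21 and RPS6P25 at 1.13 CPM, and just outside it RPS2P32 at 0.960, RPL7P23 at 0.959 and RPS3AP38 at 0.923 CPM.

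The study measured messenger RNA in 3 libraries of Huh7 cells with a short hairpin RNA (shRNA) against CTSV, labelled as knockdown, and in 3 libraries of Huh7 cells with a control shRNA, labelled WT in genotype. The design text describes these as established cell lines, so each group may be 1 line. The labels do not say whether replicate libraries stem from separate cultures, so p-values measure only the spread between these libraries. The sources used here do not give the number of hairpins.

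A processed pseudogene is a copy of a messenger RNA that was written back into the genome, without introns and usually without a promoter of its own. Ribosomal protein genes, which encode the proteins of the large (RPL) and small (RPS) ribosomal subunits and are among the most strongly transcribed genes of any cell, have left more such copies in the human genome than other gene families. A short read from the parent messenger RNA can match such a copy as well as it matches the parent, so a count at a pseudogene name may hold reads of the parent.

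The members came from 35 parent genes. A total of 21 parents had 1 member, 9 had 2 and 5 had 3. The large subunit supplied 39 members and the small subunit 15. In GENCODE v29 (GRCh38), 46 were annotated as processed pseudogenes, 6 as transcribed processed pseudogenes and 2 as transcribed unprocessed pseudogenes. The last type stands for duplicates of a gene rather than copies of its RNA, and holds RPL32P3 and RPL23AP82. RPL23AP82 shares 1187 windows of 50 bases with RPL23AP7, annotated as transcribed processed, and 0.119% of its windows with RPL23A. The reads were concentrated in few members. The 4 of highest level, RPL41P1, RPL9P9, RPS2P5 and RPL13AP5, took 46.8% of all member counts, and the highest 12 took 75.8%. A total of 22 members reached 10 CPM, and 32 lay between 1 and 10 CPM.

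How closely a copy matches its parent is shown first for pairs on which the results below turn. RPL41P1, at chr20:21755270-21755350 on the plus strand (GRCh38), is the member of highest level. Its parent RPL41, at chr12:56116586-56117943 on the plus strand, encodes the smallest protein of the large subunit. The whole annotated pseudogene and the matching stretch of the parent transcript, which holds the coding sequence and the stop codon, have no differing base.

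RPL41P1: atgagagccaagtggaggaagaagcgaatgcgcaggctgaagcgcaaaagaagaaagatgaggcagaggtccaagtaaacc
RPL41: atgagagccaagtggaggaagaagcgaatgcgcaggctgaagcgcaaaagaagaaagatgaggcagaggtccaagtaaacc

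RPS28P7, at chr11:82689559-82689768 on the plus strand, is shown because nearly all counts of its family stood at the pseudogene name. Its parent RPS28, at chr19:8321158-8323340 on the plus strand, encodes a protein of the small subunit. The 210 bases of the pseudogene equal the coding sequence of the parent.

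RPS28P7: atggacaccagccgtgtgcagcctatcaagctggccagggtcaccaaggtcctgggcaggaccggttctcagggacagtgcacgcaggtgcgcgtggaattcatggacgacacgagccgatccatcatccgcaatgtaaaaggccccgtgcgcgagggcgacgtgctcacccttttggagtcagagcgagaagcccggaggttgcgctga
RPS28: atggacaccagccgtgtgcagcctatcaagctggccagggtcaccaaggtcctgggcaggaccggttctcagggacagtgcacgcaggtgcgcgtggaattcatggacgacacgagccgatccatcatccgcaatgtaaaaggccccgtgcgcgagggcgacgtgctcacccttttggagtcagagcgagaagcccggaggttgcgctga

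RPL9P9, at chr15:82372196-82372912 on the minus strand, differs from its parent RPL9, at chr4:39454124-39458948 on the minus strand, by 1 base over the whole alignment. The window of 91 bases around that base, positions 321 to 411 from the start of each aligned coding sequence, has the differing base in capitals.

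RPL9P9: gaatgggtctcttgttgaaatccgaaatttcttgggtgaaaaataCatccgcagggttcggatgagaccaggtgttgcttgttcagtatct
RPL9: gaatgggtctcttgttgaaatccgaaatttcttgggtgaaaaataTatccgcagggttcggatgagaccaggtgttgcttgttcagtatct

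RPL37AP1, at chr20:44466564-44466842 on the minus strand, is shown as a copy that reads can tell from its parent. It had the largest fall of the called members, at a low level. It differs from the coding sequence of RPL37A, at chr2:216498189-216579180 on the plus strand, at 12 of 279 bases, which are in capitals.

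RPL37AP1: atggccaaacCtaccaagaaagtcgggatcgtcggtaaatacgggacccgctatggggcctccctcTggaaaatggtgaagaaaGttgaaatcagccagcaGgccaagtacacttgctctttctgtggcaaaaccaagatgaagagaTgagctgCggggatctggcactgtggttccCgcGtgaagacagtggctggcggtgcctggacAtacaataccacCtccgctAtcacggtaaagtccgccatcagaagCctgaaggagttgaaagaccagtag
RPL37A: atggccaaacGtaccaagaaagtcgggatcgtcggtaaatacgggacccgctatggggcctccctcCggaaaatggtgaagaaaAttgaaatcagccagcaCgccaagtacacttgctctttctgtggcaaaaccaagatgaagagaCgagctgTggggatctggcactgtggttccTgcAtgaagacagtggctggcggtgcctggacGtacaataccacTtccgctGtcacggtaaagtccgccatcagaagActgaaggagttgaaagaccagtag

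CTSV had 304, 264 and 296 counts in CTSV shRNA libraries and 755, 740 and 658 in control libraries, a log2 fold change of -1.34 ± 0.10 (SE, edgeR adjusted p = 7.2e-14). Library totals lay between 16280506 and 17930442 counts in CTSV shRNA libraries and between 16258803 and 18106207 in control libraries. Mitochondrial genes took 11.4% to 11.8% of counts in CTSV shRNA libraries and 9.09% to 9.51% in control libraries, which moved with the groups, and their part in the results was not tested. Of 10 hepatocyte markers edgeR called 6 higher and 1 lower, from ALB (albumin) at 13378 ± 329 CPM in CTSV shRNA libraries and 11482 ± 273 CPM in control libraries, to TTR (transthyretin), the one lower, at 122 ± 10.3 and 139 ± 5.75 CPM (SD, n = 3 each). Among markers of other liver cell types, EPCAM stood at 21.7 CPM in CTSV shRNA libraries and 10.2 in control libraries and COL1A2 at 19.1 and 9.43 CPM, both called higher, and LYZ at 57.1 and 76.3 CPM, called lower. Of 3 cholangiocyte markers 1 was higher (EPCAM), 1 lower (SOX9, log2 fold change -0.17) and 1 not called. Of 5 fibroblast and stellate markers 2 were higher, 0 lower, 2 not called and 1 not tested. Of 4 leukocyte and macrophage markers 0 were higher, 1 lower, 1 not called and 2 not tested. Their part in the results was not tested. Among all 15968 names tested, edgeR called 21.6% lower and 18.7% higher at an adjusted p under 0.05. With offsets for transcript length and GC content the calls shifted, with 2231 higher and 4744 lower in place of 2982 higher and 3451 lower, and the median log2 fold change of all names was -0.07 in place of 0.02.

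Many of the pseudogenes fell in CTSV shRNA cells, and so did most of their parents. All 54 passed the filter on low counts, and edgeR called 26 of them lower and 0 higher in CTSV shRNA libraries, where the background over all tested names was 21.6% lower. With an unadjusted p under 0.05, 1 member was higher, and DESeq2 called 0 higher. The 26 that fell changed by between -0.29 and -1.49 on the log2 scale, with a median of -0.60. Of the 28 not called, 19 had a log2 fold change below 0 and 9 above 0. The median over all members was -0.42, against 0.02 over all tested names. In 30 members every CTSV shRNA library lay below every control library in normalised CPM, and in 2, RPL32P3 and RPL23AP64, every one lay above, where the backgrounds were 25.0% and 24.1%. Under the length and GC offsets the count was 30 lower and 0 higher, where 29.8% of all names were called lower.

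The share of each library's counts that stood at member names was 0.140%, 0.129% and 0.117% in CTSV shRNA libraries and 0.181%, 0.189% and 0.174% in control libraries. All CTSV shRNA libraries lay below all control libraries, at 0.129 ± 0.0117% against 0.181 ± 0.00725% (SD, n = 3 each). The exact two-sided permutation test gave p = 0.1, the smallest that 3 against 3 libraries allow. The summed parents took 1.22 ± 0.0517% of counts in CTSV shRNA libraries and 1.64 ± 0.0743% in control libraries (SD, n = 3 each). Members as a percentage of the parents' summed counts came to 11.04, 10.50 and 10.00 in CTSV shRNA libraries and 11.24, 10.94 and 10.97 in control libraries. The groups overlapped in the log2 ratio of these sums, which differed by -0.07 (exact two-sided permutation p = 0.3). In this bulk RNA, less RNA per cell and fewer cells that carry it cannot be told apart.

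Calls were more frequent among members of higher level. At 10 CPM or more, 20 of 22 members fell, where 33.4% of all names at that level were called lower and 19.8% higher. Between 1 and 10 CPM, 6 of 32 fell, where 5.68% of all names at that level were called lower and 19.6% higher. The standard errors of the log2 fold changes lay between 0.05 and 0.14 in the upper class and between 0.17 and 0.48 in the lower one. The median log2 fold change was -0.54 in the upper class and -0.35 in the lower one. Of 15 members below 2 CPM, 3 were called lower, where 1.92% of all names from 1 to 2 CPM were. Of these 3, RPL37AP1 and RPL13P5 reached 1 CPM in the control group only. The rule thus admitted them through the group in which they are high, and no excess is read from this count. Both are also among the 6 that fell between 1 and 10 CPM.

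The pseudogenes of the large subunit led the set by level. RPL41P1 had 3054, 2834 and 2906 counts in CTSV shRNA libraries and 4555, 4428 and 4109 in control libraries. These are 172 ± 12.4 and 259 ± 6.23 normalised CPM (SD, n = 3 each), and the log2 fold change was -0.59 ± 0.05 (SE, edgeR adjusted p = 1.3e-11). The groups were wide apart, with the highest CTSV shRNA library far below the lowest control library. A second copy of the same parent, RPL41P5 at chr12:93083598-93083675, had 919, 724 and 727 counts in CTSV shRNA libraries and 1253, 1250 and 1066 in control libraries, with a log2 fold change of -0.61 ± 0.08 (edgeR adjusted p = 3.4e-07). The parent RPL41 itself fell by 0.53 on the log2 scale, at 121 ± 11.98 CPM in CTSV shRNA libraries and 174 ± 10.6 CPM in control libraries (SD, n = 3 each). Both copies equal the parent over their whole length, so the counts of the 3 names cannot be assigned with certainty.

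RPL9P9, a transcribed copy of the gene for a protein near the base of the large subunit stalk, had 2645, 2832 and 2611 counts in CTSV shRNA libraries and 3502, 3359 and 3638 in control libraries. Its log2 fold change was -0.40 ± 0.06 (edgeR adjusted p = 1.0e-06). RPL9 had far fewer counts and did not share that direction (log2 fold change 0.15, edgeR adjusted p = 0.23). It had 502, 459 and 647 counts in CTSV shRNA libraries and 502, 467 and 456 in control libraries. Of the 50-base windows of RPL9P9, 4.53% lie in no transcript of another gene, so the counts of RPL9P9 and RPL9 cannot be assigned with certainty. RPL13AP5, a copy of the gene for a large subunit protein that also acts outside the ribosome as a repressor of translation, had 2450, 2045 and 2144 counts in CTSV shRNA libraries and 3072, 3129 and 2674 in control libraries. It fell by 0.44 on the log2 scale and its parent RPL13A by 0.51.

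RPL24P4 had 946, 756 and 887 counts in CTSV shRNA libraries and 1798, 1754 and 1051 in control libraries, with a log2 fold change of -0.84 ± 0.10 (edgeR adjusted p = 1.8e-08). Control replicate 3 stood well below the other two control libraries, and the groups still did not overlap. Its parent RPL24 encodes a large subunit protein at the interface to the small subunit, and fell by 0.56. RPL7P9 had 979, 881 and 896 counts in CTSV shRNA libraries and 1493, 1402 and 1241 in control libraries, a log2 fold change of -0.60. RPL39P3, a full copy of the gene for a small protein of the exit tunnel, had 919, 855 and 985 counts in CTSV shRNA libraries and 1346, 1378 and 1137 in control libraries, a log2 fold change of -0.50. RPL6P27 changed least of the 12 highest, with 584, 582 and 562 counts in CTSV shRNA libraries and 748, 786 and 655 in control libraries (log2 fold change -0.36, edgeR adjusted p = 0.00098). In all of these the groups did not overlap.

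Among the small subunit pseudogenes, RPS2P5 changed most at high level. Its counts were 2620, 1905 and 1662 in CTSV shRNA libraries and 4488, 3540 and 3771 in control libraries, and its log2 fold change was -0.94 ± 0.09 (edgeR adjusted p = 2.6e-10). The CTSV shRNA libraries were spread, with replicate 1 highest, and all 3 lay below the control libraries. Its parent RPS2, which encodes a small subunit protein near the entry site of the messenger RNA, fell by 0.70. RPS2P5 lies on the strand opposite to TAOK3, a kinase gene, which was not called at a log2 fold change of -0.12.

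RPS27AP16 is a copy of RPS27A, the gene for a fusion of ubiquitin with a small subunit protein. It had 738, 750 and 658 counts in CTSV shRNA libraries and 1132, 1347 and 930 in control libraries, a log2 fold change of -0.68. RPS3AP6 had 707, 653 and 695 counts in CTSV shRNA libraries and 993, 971 and 852 in control libraries, a log2 fold change of -0.47. RPS28P7 had 627, 570 and 605 counts in CTSV shRNA libraries and 1026, 1083 and 879 in control libraries, a log2 fold change of -0.75 ± 0.08 (edgeR adjusted p = 1.9e-09). The groups did not overlap in any of the 3.

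**Figure D1:**
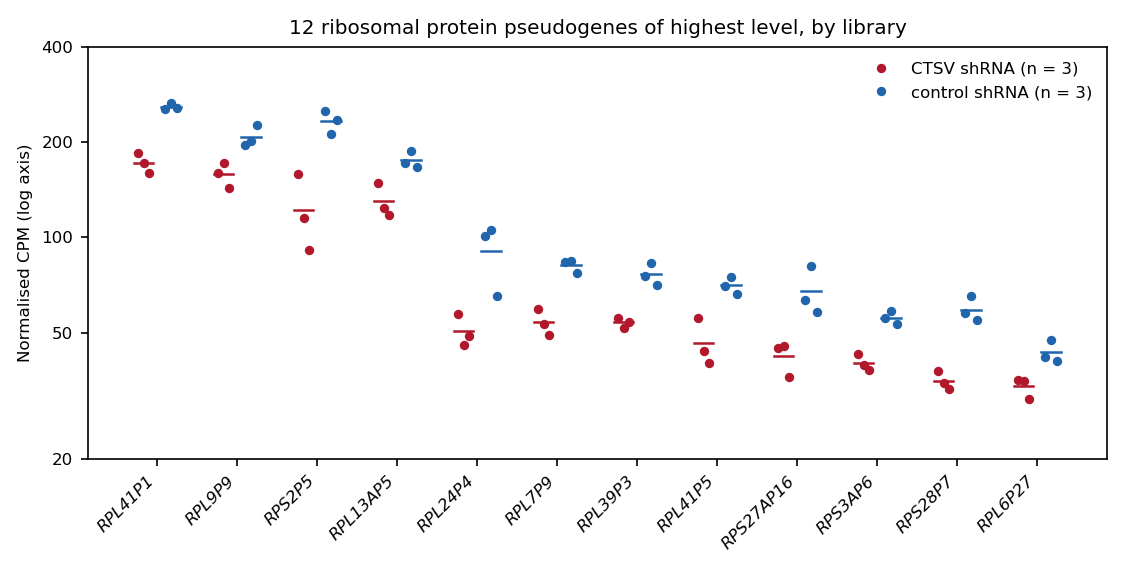
Normalised CPM on a log axis for the 12 pseudogenes of highest level, with each library as a point (CTSV shRNA left, control shRNA right, n = 3 each) and the group mean as a line. In all 12 the CTSV shRNA libraries lie below the control libraries, with RPS2P5, RPL24P4 and RPS28P7 showing the widest gaps between the means.

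At 10 CPM or more, RPL3P4 and RPL32P3 were the members not called. RPL3P4, a partial copy of the gene for a protein at the peptidyl transferase centre, had 628, 595 and 616 counts in CTSV shRNA libraries and 674, 747 and 523 in control libraries, and the groups overlapped (log2 fold change -0.10, edgeR adjusted p = 0.44). RPL32P3 had 589, 621 and 647 counts in CTSV shRNA libraries and 559, 570 and 454 in control libraries. Its log2 fold change was 0.21 ± 0.09 (edgeR adjusted p = 0.057), while its parent RPL32 fell by 0.52. RPL32P3 is 1 of the 2 unprocessed members and has 8 annotated transcripts. The transcript that aligns best to the parent, of 498 bases, has 82.3% identity to it. None of the 50-base windows of that transcript lies in a transcript of another gene. Counts are per gene, and windows of the other transcripts of RPL32P3 were not searched. RPL32P3 was called higher with a filter at a mean of 1 CPM (adjusted p = 0.045), and without control replicate 2 (adjusted p = 0.023).

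The 8 largest falls among called members with groups that did not overlap included 5 members of low level. RPL37AP1 had 11, 15 and 17 counts in CTSV shRNA libraries and 34, 55 and 30 in control libraries, with a log2 fold change of -1.49 ± 0.41 (edgeR adjusted p = 0.0038). RPL13P5 had 8, 15 and 14 counts in CTSV shRNA libraries and 33, 23 and 31 in control libraries, a log2 fold change of -1.25 ± 0.45 (edgeR adjusted p = 0.025). RPS26P6 had 14, 14 and 26 counts in CTSV shRNA libraries and 32, 56 and 34 in control libraries, a log2 fold change of -1.21 ± 0.40 (edgeR adjusted p = 0.015). These counts are small, and each of the 3 calls was lost when at least 1 library was left out. RPL37AP1 and RPL13P5 reached 1 CPM in the control group only, at 0.848 and 0.731 CPM in CTSV shRNA libraries and 2.32 and 1.69 CPM in control libraries, so the rule admitted them through the group in which they are high. The same holds for RPL3P2 and RPS3AP47, which were not called, and RPS6P25 was admitted through the CTSV shRNA group.

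A pair of RPL10 copies gave firmer values. RPL10 encodes a protein that joins the large subunit late, in the cytoplasm. RPL10P9, on chromosome 5, had 66, 50 and 65 counts in CTSV shRNA libraries and 141, 155 and 100 in control libraries, a log2 fold change of -1.15 ± 0.21 (edgeR adjusted p = 2.6e-05). RPL10P16, on chromosome 19, had 51, 33 and 56 counts in CTSV shRNA libraries and 95, 99 and 95 in control libraries, a log2 fold change of -1.07 ± 0.24 (edgeR adjusted p = 0.00041). RPL10 fell by 0.79, the largest fall of the parents. Both copies have an open reading frame as long as that of the parent and 7 differing bases, and they share 245 windows of 50 bases with each other.

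The calls of 19 of the 26 members held when each library was left out in turn. The 7 that lost their call at least once were RPL7AP6 (without CTSV shRNA replicate 1), RPS7P1 (without replicate 3 of either group), RPS2P46, RPL4P4, RPS26P6 (without replicate 2 of either group), RPL37AP1 (without control replicate 2) and RPL13P5. RPS2P46 lost its call without CTSV shRNA replicates 2 or 3 or control replicates 1 or 2, RPL4P4 without replicates 2 or 3 of either group, and RPL13P5 without replicates 1 or 3 of either group. The highest edgeR adjusted p reached was 0.26, in RPS2P46, and the lowest of these 7 maxima was 0.059, in RPL37AP1. All 7 kept a log2 fold change below 0 in each of these fits. The number of members called lower lay between 22 and 25.

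Most parent genes fell. EdgeR called 31 of 35 parents lower and 0 higher, where the background was 21.6% lower, with a median log2 fold change of -0.48. With an unadjusted p under 0.05 no parent (0) was higher, and DESeq2 called 0 higher. The wider list of 79 cytosolic ribosomal protein genes gave 70 lower and 0 higher with a median of -0.49, and of the 44 that are parents of no member 39 were lower. Neither an unadjusted p under 0.05 nor DESeq2 gave a higher member of that list (0 each). Without single libraries the count of parents called lower lay between 29 and 31. RPL23A lost its call without CTSV shRNA replicate 2 (adjusted p = 0.056), RPL39 without CTSV shRNA replicate 3 (0.054) and RPS26 without replicate 2 of the CTSV shRNA group (0.059) or of the control group (0.057).

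Of the 26 members that fell, 23 had a parent that fell. Of the 28 not called, 26 had a parent that fell. Among the parents as a whole 88.6% fell, so no link between the calls of member and parent is read from these counts. The median difference between a member's log2 fold change and that of its parent was 0.02, with 30 members less lowered and 24 more lowered than the parent. Across the 54 pairs the log2 fold changes had a Pearson correlation of 0.23, and 0.08 in the 22 pairs at 10 CPM or more. The pairs share all libraries, several share a parent, and near-identical copies may share reads.

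**Figure D2:**
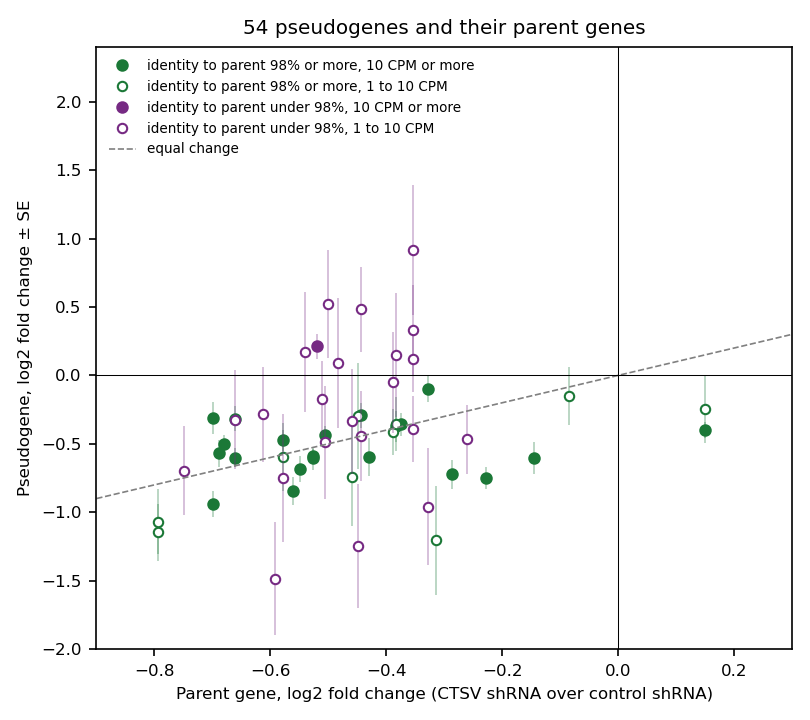
Log2 fold change (CTSV shRNA over control shRNA) of each of 54 pseudogenes, with its SE, against that of its parent gene, with filled points for members at 10 CPM or more and colours for identity to the parent. Most filled points lie below 0 on both axes, RPL32P3 is the only filled point above 0 for the pseudogene, and the scatter is widest for open points under 98% identity.

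The ratio of a member to its own parent was described for each library, without a test. In 8 members the ratio was higher in every CTSV shRNA library than in every control library, and in 4 it was lower. No share over all names was taken for such ratios, so no excess is read from these counts. RPL32P3 stood at 10.3% of its parent's counts in CTSV shRNA libraries and 6.18% in control libraries. RPL23AP64 stood at 13.1% of RPL23A in CTSV shRNA libraries and 8.18% in control libraries. The other 3 members with the largest positive shift, RPS6P25, RPS18P9 and RPL7AP10, had at most 64 counts in any library and were not called themselves.

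RPS6P25 had 37, 15 and 23 counts in CTSV shRNA libraries and 11, 16 and 12 in control libraries, and RPS6 fell by 0.35. RPS6P25 lies on the same strand within GCDH, a gene of lysine breakdown, which was not called at a log2 fold change of -0.09. RPL7AP10 had 45, 40 and 64 counts in CTSV shRNA libraries and 46, 29 and 30 in control libraries. It lies on the strand opposite to ZNF431, a zinc finger gene, which rose by 0.24 on the log2 scale (edgeR adjusted p = 0.0026). RPL23AP64 lies on the strand opposite to CCDC84, which rose by 0.33 (edgeR adjusted p = 0.0059). The sources used here do not say whether the libraries keep strand, so reads of a gene and of a pseudogene on its other strand cannot be told apart.

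The 4 members with lower ratios were RPS26P6, RPL37AP1, RPL9P9 and RPL21P16. The counts of RPS26P6 and RPL37AP1 are small, as given above. RPS26P6 stood at 4.41% of RPS26 in CTSV shRNA libraries and 8.16% in control libraries. RPL9P9 had 503% of the counts of RPL9 in CTSV shRNA libraries and 737% in control libraries. RPL21P16 had 73.7% of the counts of RPL21 in CTSV shRNA libraries and 101% in control libraries. RPL21P16 equals its parent over the alignment and RPL9P9 differs from its parent by 1 base, so the counts of these pairs cannot be assigned with certainty.

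For 5 parents the pseudogene names held more counts than the parent itself, over all names of the pattern. They held 94.2% of the family's counts for RPS28, 89.7% for RPL39, 86.3% for RPL9, 65.1% for RPL41 and 51.3% for RPL21. In 3 further families they held between 25% and 50%, RPL23A with 41.9%, RPL26 with 39.7% and RPS3A. The median over the 35 families was 5.44%, and 20 families lay under 10%. Copies without a ribosomal protein name are not in these shares. AC004057.1, at 53.0 CPM, is such a copy and shares 247 windows of 50 bases with RPS26P6, while RPS26 stood at 26.6 CPM. Per kilobase of annotated transcript, where the parent's length includes its untranslated regions, 6 members had a higher level than the parent. RPS28P7 stood at 224 CPM per kilobase and RPS28 at 2.19, a ratio of 102. The ratio was 22.0 for RPL39P3, 8.46 for RPL41P1, 7.97 for RPL9P9, 2.38 for RPL41P5 and 1.12 for RPL21P16.

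**Figure D3:**
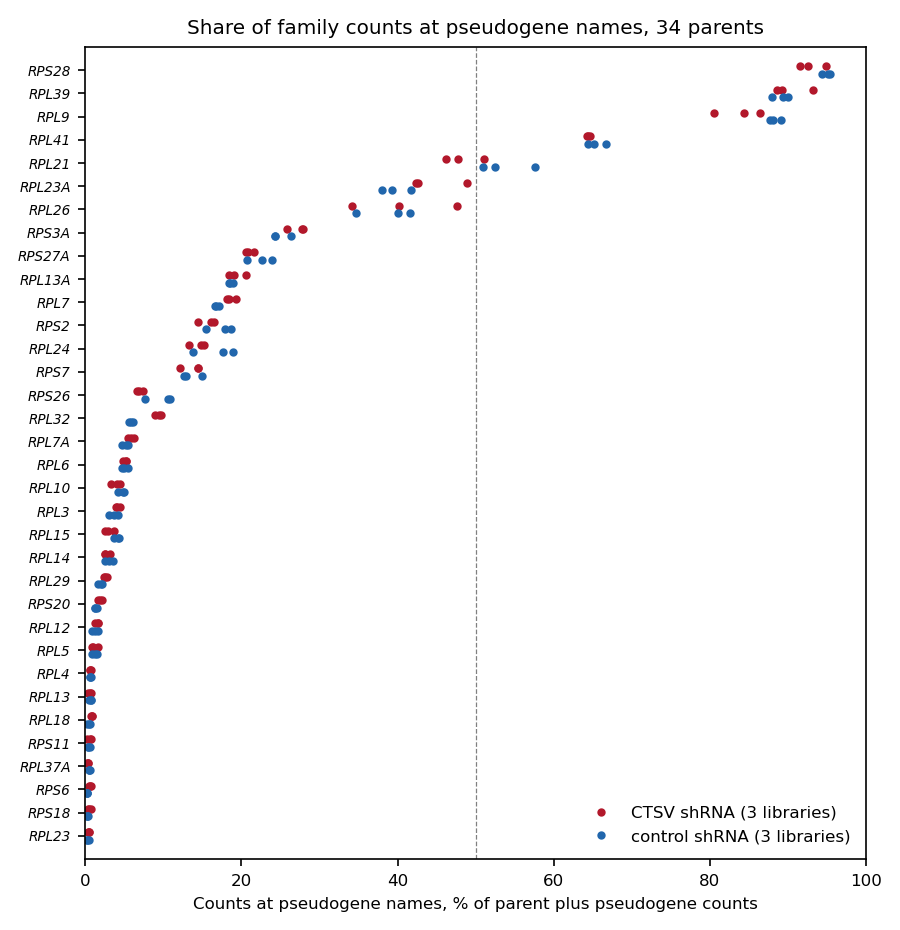
Counts at pseudogene names as a percentage of parent plus pseudogene counts for 34 of the 35 parents, with each library as a point (CTSV shRNA above, control shRNA below, 3 libraries each). RPS28, RPL39, RPL9 and RPL41 lie above 50% in all 6 libraries, and most families lie under 10%. Only pseudogene names of the pattern are counted.

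The 4 parents that were not called were RPL9, RPS28, RPL21 and RPL26. Pseudogene names held much of the counts in these families, and also in those of RPL39, RPL41 and RPL23A, whose parents fell by 0.68, 0.53 and 0.35. RPS28 had 50, 53 and 33 counts in CTSV shRNA libraries and 53, 53 and 52 in control libraries, and the far higher counts of RPS28P7 are given above. RPL21 had 333, 309 and 335 counts in CTSV shRNA libraries and 396, 346 and 325 in control libraries. RPL26 had 173, 140 and 150 counts in CTSV shRNA libraries and 188, 157 and 141 in control libraries. The groups overlapped in RPL26, and its member RPL26P19 was also not called.

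The counts of all pseudogene names were then added to those of their parents before the fit, a setting chosen after seeing the data. With them 34 of 35 parents fell, where 21.7% of all names were called lower. The sums hold the counts of members already called lower, RPS28P7, RPL9P9 and RPL21P16 among them. The calls gained are thus no separate result about the parents. RPL9 then stood at a log2 fold change of -0.32 in place of 0.15 (edgeR adjusted p = 6.5e-06). RPS28 stood at -0.72 in place of -0.23 (adjusted p = 2.6e-09), and RPL21 at -0.30 in place of -0.14 (adjusted p = 0.0027). RPL26 was the one not called, at -0.04 (adjusted p = 0.84). In 5 parents the log2 fold change moved by more than 0.1, and the median move over 35 parents was 0.01.

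Level, identity and change went together among the members. Identity to the best-matching coding transcript of the parent had a median of 98.5% and a minimum of 76.8%, in RPL13P5. At 10 CPM or more, 21 of 22 members had at least 98% identity, and between 1 and 10 CPM 10 of 32 did. The 5 identical members, RPL41P1, RPL39P3, RPL41P5, RPS28P7 and RPL21P16, have no window of 50 bases of their own, and all 5 fell. Of the 26 others at 98% or more, 19 fell, and of the 23 under 98%, 2 fell, RPL37AP1 and RPL13P5. Both of these reached 1 CPM in the control group only. The median levels of these 3 classes were 58.3, 28.6 and 1.85 CPM, so that level and identity cannot be told apart over the whole set. Of all tested names, 33.4% of those at 10 CPM or more and 1.92% of those from 1 to 2 CPM were called lower. Within 1 to 10 CPM, 4 of 10 members at 98% or more fell and 2 of 22 under 98% fell, where 5.68% of all names at that level were called lower, with median log2 fold changes of -0.50 and -0.30. Spearman's rho over the 54 members was 0.68 between level and identity and -0.41 between identity and log2 fold change.

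**Figure D4:**
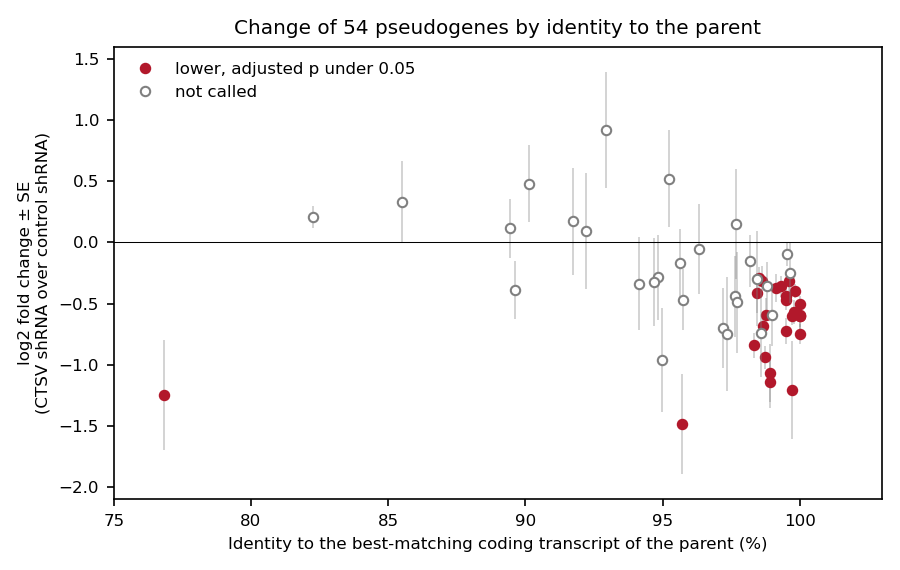
Log2 fold change with its SE against identity to the parent (%) for 54 pseudogenes, with filled points for those called lower by edgeR (26) and open points for those not called (28). The filled points gather at 98% or more, and all points above 0 lie under 98% identity. RPL37AP1 and RPL13P5 are the filled points under 98%, and both reached 1 CPM in the control group only.

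Windows of 50 bases found in no other annotated transcript made up a median of 18.9% of a member at 10 CPM or more and 64.6% of a member between 1 and 10 CPM. RPL24P4 had 56.7% of such windows and RPS27AP16 43.7%, so that both hold stretches by which a read can be placed. RPL37AP1 had 97.4%. A total of 22 members keep an open reading frame as long as that of the parent, and 16 of them fell, while 10 of 32 with a shorter one fell, against 21.6% of all tested names. The copies with a full frame had a median level of 29.9 CPM and the others 3.39 CPM. The longest frame of RPS2P5 reached 23.9% of the parent's, that of RPL24P4 33.8% and that of RPL37AP1 53.3%.

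Position next to other genes was compared as well. The background for these counts is 21.6% lower over all tested names. On the same strand as another gene of the table lay 11 members, of which 5 fell. On the opposite strand only lay 13, of which 6 fell, and 30 overlapped no other gene, of which 15 fell. Summed over these 30, the share of counts was 0.0706 ± 0.00596% in CTSV shRNA libraries and 0.0991 ± 0.00751% in control libraries (SD, n = 3 each, exact two-sided permutation p = 0.1). Genes around members moved either way. RPL7AP6 lies on the strand opposite to SMOC1, which rose by 0.73 while RPL7AP6 fell by 0.29. RPS7P11 lies on the strand opposite to NSF, which fell by 0.43, while RPS7P11 was not called at -0.36. RPL9P9 lies on the strand opposite to UBE2Q2P2, which was not called at 0.14.

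In the authors' deposited table, 23 members had an adjusted p under 0.05, and all 23 had a positive log2 fold change. The column header does not give the direction of the comparison. All 54 members had the opposite sign to the edgeR values given here. This is the same direction of change if the column is read as control over CTSV shRNA, a reading inferred from these signs. All 23 were among the 26 called lower by edgeR.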

How the data were processed

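Per the labels' protocols, RNA of Huh7 cells was extracted with TRIzol and made into mRNA libraries with an NEBNext Ultra II kit. The authors deposited raw read counts per gene for 6 libraries, with no normalization recorded. The genome was hg38, and the tools HISAT2, SAMtools and StringTie, per the submitters' processing notes. Neither the counting tool nor the annotation, nor how multiply matching reads were counted, is given in the sources used here, and the last of these decides how reads are split between a parent and its copies. The authors also deposited log2 fold changes and p-values of their own, made with a tool that the sources do not name.

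Repeat entries of a name (1521 of 28915) were removed before library totals were taken. Counts were tested with edgeR 4.0.16 in R 4.3.3 (quasi-likelihood, TMM, filterByExpr, no covariate), with Benjamini-Hochberg adjustment over 15968 names and calls at an adjusted p under 0.05. CPM values use TMM library sizes, and the common biological coefficient of variation was 6.87%. Ratios of single pairs use a pseudocount of 0.5 where logged. Library sums were compared by exact permutation. Gene types, transcripts and sequences came from GENCODE v29, in which 53 of 54 members have the same coordinates as in the deposited table, and identity was computed by alignment with Biopython 1.88. For a member with several annotated transcripts, identity, reading frame and windows are those of the transcript that aligns best to the parent. The fit was tested on simulated data.

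Members, parents and lists were chosen with earlier results of these data known. Named genes are CTSV, the 12 members of highest level, up to 8 called falls and rises with groups that do not overlap, the names at the limit, the largest shifts in ratio to the parent, the parents and overlapping genes of these. Members named for a lost call, at 10 CPM or more without a call, or for a gene they overlap (RPL7AP6, RPS7P11) were chosen after their values were seen. Values of 1 parent and its member are not reported here by name. Alternatives were RLE size factors, other low-count filters, a replicate block, DESeq2 1.42.0, length and GC offsets, all deposited entries, each library left out, and pseudogene counts added to the parent.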

Additional observations from a re-analysis of the deposited data

How the results depend on the processing

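The number of members called lower was 26 and lay between 23 (DESeq2) and 30 (length and GC offsets, with or without the replicate block) over the settings with all libraries, and between 22 and 25 with 1 library left out. The number called higher was 0, and 1 with a filter at a mean of 1 CPM or with the replicate block, in both cases RPL32P3, and 0 to 1 with 1 library left out. With the replicate block 27 members and 31 parents were lower. The replicate numbers did not pair the libraries: correlations of the deviations of same-numbered libraries were -0.01, -0.00 and 0.02. Parents called lower numbered 31 under every setting with all libraries, except 34 with pseudogene counts added, and 29 to 31 with 1 left out. Over 816 values of 56 named genes under the alternatives, 776 kept direction and call, 16 lost the call, 7 gained it and 17 changed sign.

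Signs changed mostly in genes that were not called. RPL9 stood at -0.32 with pseudogene counts added, and RPS7P10 at -0.00490 with length and GC offsets and between -0.15 and 0.58 with 1 library left out. UBE2Q2P2 stood at -0.11 with the offsets and -0.12 with offsets and block. DSTNP2, which overlaps RPL13P5 by 60 bases, stood at -0.018 with the offsets and -0.016 with offsets and block. With 1 left out, DSTNP2 lay between -0.043 and 0.21. OOEP, which contains RPL39P3, stood at -0.039 with the block, -0.060 with offsets and block and between -0.53 and 0.28 with 1 left out. LRRC23 (-0.42 to 0.075) and SPSB2 (-0.38 to 0.025), which overlap RPL13P5, changed sign with 1 library left out. So did AL449212.1 (-0.024 to 0.26), which overlaps RPL32P3 on the opposite strand. LRRC23 covers 11173 of the 11353 bases of RPL13P5 on the same strand and shares 513 windows of 50 bases with it. SPSB2 contains RPL13P5 on the opposite strand. Apart from RPL9, whose value holds the added counts by construction, the cause was not tested. Standard errors were larger for the members under 10 CPM, and how multiply matching reads were counted is not known.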

Other observations

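Of 353 processed pseudogenes at 1 CPM or more without a ribosomal protein name, edgeR called 41 (11.6%) lower and 47 (13.3%) higher. Their median log2 fold change was -0.03. Among all names 21.6% were called lower and 18.7% higher. The median level of these 353 was 2.47 CPM, and of all names from 1 to 10 CPM 5.68% were called lower and 19.6% higher. A split made after seeing the data took out 32 that share at least 1 window of 50 bases with a ribosomal protein gene or a member. Of these, 8 were lower and 1 higher, with a median of -0.42, and of the other 321, 33 were lower and 46 higher, with a median of 0.01. The most abundant was EEF1A1P5, a copy of a translation elongation factor gene, with 18292, 19485 and 20794 counts in CTSV shRNA libraries and 34839, 29313 and 28215 in control libraries, and it fell by 0.67. EEF1A1P6 fell by 0.34, and of 4 EEF1A1 copies in all, 2 fell, 1 rose and 1 was not called. PPIAP22, a copy of the cyclophilin A gene, fell by 0.63, and HMGB1P5, a copy of a chromatin protein gene, by 0.46. GTF2IP4, from the gene of a general transcription factor, rose by 0.41, with 1139, 1263 and 1429 counts in CTSV shRNA libraries and 931, 895 and 999 in control libraries. Of 20 listed gene families with such copies, 7 had only falls among the called names, 4 only rises, 1 both and 8 no called name. Of 12 pseudogenes of translation initiation factors 5 fell and 0 rose, of 2 GAPDH copies 0 fell and 1 rose, and of 5 HMGN copies none was called.

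Names of ribosomal protein pseudogenes below the limit of 1 CPM numbered 356. The filter on low counts left 18 of them, of which edgeR called 2 higher and 1 lower, with a median log2 fold change of -0.00. Among all tested names 21.6% were called lower and 18.7% higher, and 1.92% of those from 1 to 2 CPM were called lower. The 18 had a median level of 0.681 CPM. No share of calls was taken over all names below 1 CPM, so no contrast with the members is drawn. AC004057.1, which carries no ribosomal protein name, shares 247 windows of 50 bases with RPS26P6. It had 699, 768 and 649 counts in CTSV shRNA libraries and 1156, 1082 and 1047 in control libraries and fell by 0.65, against 0.31 for RPS26.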
